A study of Mus musculus with 24 samples.

Results

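The BCL2 family decides whether a cell opens the outer membrane of its mitochondria and dies. The 10 members described here were Bcl2, Bcl2l1, Mcl1, Bcl2a1b, Bax, Bak1, Bcl2l11, Bid, Bbc3 and Pmaip1, taken from the bulk count table as the rows that carry these symbols. They are 10 of 54957 rows in the table, 26497 of them above 0 in at least 1 library, and all 10 passed the filter on low counts in every fit. Mice bearing B16F10-OVA tumours, a melanoma line that carries the model antigen ovalbumin, received 200 µg of an isotype control antibody, an anti-PD-1 antibody or an anti-JAML antibody, and tumours were taken 1 day later. PD-1 is an inhibitory receptor of T cells and JAML is a junctional adhesion molecule-like receptor found on T cells. From each treatment, CD8+ T cells and CD4+FOXP3+ regulatory T cells (Treg) were sorted, and polyadenylated RNA of fewer than 400 cells per library was sequenced after Smart-seq2 amplification. That gave 6 groups of 4 libraries: CD8 isotype, CD8 anti-PD-1, CD8 anti-JAML, Treg isotype, Treg anti-PD-1 and Treg anti-JAML. The sources used here do not give the mouse strain, the age or the way FOXP3 was read in the sort. The labels do not tell whether each library is its own mouse, and a p-value here therefore speaks only for the variation among libraries, part of which may be technical.

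In healthy T cells, survival proteins (BCL2, BCL-XL from Bcl2l1, MCL1 and A1 from the Bcl2a1 genes) hold the pore formers BAX and BAK in check. BH3-only proteins, which are BIM from Bcl2l11, BID, PUMA from Bbc3 and NOXA from Pmaip1, bind the survival proteins or the pore formers and so favour death. BIM is known as a main mediator of the death of activated T cells and of T cells deprived of cytokine, while interleukin 7 and interleukin 2 signals are known to sustain BCL2 and MCL1.

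The 24 libraries held between 11170918 and 22556460 counts in genes, with a median of 16238787. Cd8a and Cd8b1 summed to 1775 to 3005 CPM (counts scaled to library size) in CD8 libraries and to 12.3 to 48.3 CPM in Treg libraries. Foxp3 was at 0 in every CD8 library. The 6 Treg markers together summed to 487.5 to 1166 CPM in CD8 libraries and to at least 3975 CPM in every Treg library. Some libraries stood apart in transcripts of other cells. The 12 macrophage and monocyte markers summed to 464.7 CPM in library 2 of CD8 anti-JAML, and to 820.9 and 1195 CPM in libraries 1 and 4 of Treg anti-PD-1, against at most 151.9 CPM in any other library. The 4 haemoglobin genes summed to 490.6 and 404.4 CPM in libraries 2 and 4 of CD8 anti-JAML, to 680.8 CPM in library 1 of Treg anti-PD-1 and to 1373 CPM in library 4 of Treg anti-JAML, against at most 271.9 CPM elsewhere. The 7 dendritic cell markers summed to 276 and 458.5 CPM in libraries 1 and 2 of CD8 anti-JAML, against at most 187.2 CPM elsewhere. Values of fits without libraries 2 and 4 of CD8 anti-JAML, or without libraries 1 and 4 of Treg anti-PD-1, stand beside results of those groups. These fits are not free of other cells' transcripts, since they keep library 1 of CD8 anti-JAML and library 4 of Treg anti-JAML.

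Promoter sequences are shown for Bcl2, Bcl2l1 and Bcl2l11, which had the 3 largest differences between the populations, and a stretch for Bbc3, the other member with the FOXO letters, as RefSeq gives them for mouse build GRCm38.p6, from 250 bases before to 50 bases after a gene start. RefSeq held 14 such windows for 9 members. Each was searched on both strands for 5 short motifs, counting overlapping matches. The letters GGGCGG (a GC box) occurred in 10 of the 14 windows and in 35.66% of 32851 mouse promoters. GTAAACA, the core read by FOXO factors, occurred in 2 windows and in 3.65% of promoters. TGANTCA (AP-1) occurred in 1 window, that of Bcl2a1b, and in 7.81% of promoters. Neither TTCNNNGAA (STAT, 8.30% of promoters) nor TGACGTCA (CRE, 1.79%) occurred in these windows. The Bcl2 window (chr1:106714241-106714540, minus strand) held 7 GC boxes, here in capitals, and 76.0% of its bases were G or C, against a median of 52.7% over all promoters. The Bcl2l1 window (chr2:152831679-152831978, minus strand, 52.3% G or C), at the outermost of its 3 starts, held none of the 5 motifs, and nor did its other 2 windows. In the Bcl2l11 window (chr2:128125788-128126087, plus strand) the capitals mark the FOXO letters, 227 bases before the start. A 60-base stretch near a start of Bbc3 (chr7:16310067-16310126, plus strand) shows the same letters on the opposite strand. A match describes the letters in the window and is no evidence of binding.
Bcl2: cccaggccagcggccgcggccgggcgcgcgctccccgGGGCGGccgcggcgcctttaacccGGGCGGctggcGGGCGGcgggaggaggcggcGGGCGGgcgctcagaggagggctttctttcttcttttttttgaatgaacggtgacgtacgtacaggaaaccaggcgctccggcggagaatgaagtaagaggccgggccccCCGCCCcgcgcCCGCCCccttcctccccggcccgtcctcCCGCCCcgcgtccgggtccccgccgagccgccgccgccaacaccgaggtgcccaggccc
Bcl2l1: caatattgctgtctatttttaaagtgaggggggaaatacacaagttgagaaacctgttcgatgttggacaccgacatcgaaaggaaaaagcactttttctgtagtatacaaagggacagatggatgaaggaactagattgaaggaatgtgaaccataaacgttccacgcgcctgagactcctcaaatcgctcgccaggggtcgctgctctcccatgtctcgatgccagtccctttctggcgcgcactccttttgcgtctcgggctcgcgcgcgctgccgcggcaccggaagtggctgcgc
Bcl2l11: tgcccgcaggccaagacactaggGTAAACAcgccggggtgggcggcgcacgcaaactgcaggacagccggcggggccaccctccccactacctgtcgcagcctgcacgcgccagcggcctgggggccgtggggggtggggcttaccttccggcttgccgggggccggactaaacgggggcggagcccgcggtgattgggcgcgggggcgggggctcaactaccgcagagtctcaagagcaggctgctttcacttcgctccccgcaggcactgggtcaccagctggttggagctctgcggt
Bbc3: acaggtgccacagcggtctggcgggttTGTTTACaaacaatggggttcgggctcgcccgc

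Bcl2a1b is 1 of 3 near-identical copies of the A1 gene on chromosome 9, so its reads cannot be told apart with certainty from those of Bcl2a1a and Bcl2a1d. Over 516 coding bases, 12 positions differed among the 3 copies: Bcl2a1b differed from Bcl2a1d at 6 bases (98.84% identity) and from Bcl2a1a at 11 (97.87%). Of the 50-base windows of the Bcl2a1b transcript, 57.6% also occurred in Bcl2a1d. The first 60 coding bases, from the GENCODE M21 annotation of the same build, are shown because they hold 6 of those positions, in capitals.
Bcl2a1a: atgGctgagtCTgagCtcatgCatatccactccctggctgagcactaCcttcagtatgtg
Bcl2a1b: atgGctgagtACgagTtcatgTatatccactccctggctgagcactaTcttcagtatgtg
Bcl2a1d: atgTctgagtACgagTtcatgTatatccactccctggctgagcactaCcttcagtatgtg

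Levels of different genes were compared on the authors' TPM, transcript levels corrected for gene length and depth. In CD8 cells under isotype, Bax stood highest at 102 ± 7.68 TPM (SD, n = 4), followed by Bcl2a1b at 72.3 ± 12.3, Bid at 50.4 ± 8.46, Mcl1 at 39.8 ± 15.6 and Pmaip1 at 37.9 ± 8.45 TPM. Bax lay above Bcl2a1b in all 4 libraries without overlap of their ranges, while the next 3 steps of the order overlapped. The other 5 members lay below the range of Pmaip1: Bcl2l11 at 9.85 ± 2.95, Bcl2l1 at 7.53 ± 2.25, Bcl2 at 5.66 ± 3.57, Bak1 at 3.71 ± 1.49 and Bbc3 at 2.96 ± 1.11 TPM, neighbours whose ranges overlapped. In Treg cells under isotype the order began with Bcl2a1b at 95.6 ± 19.6, Mcl1 at 65.8 ± 12.2, Pmaip1 at 54.6 ± 17.8, Bax at 53.9 ± 12.5 and Bid at 43.0 ± 23.3 TPM, all with overlapping neighbours. There Bcl2l1 came next at 26.8 ± 18.04 TPM, followed by Bak1 at 6.39 ± 2.39, Bbc3 at 5.36 ± 3.60, Bcl2 at 4.63 ± 4.49 and Bcl2l11 at 3.49 ± 1.37 TPM. The range of Bcl2l1 lay just above that of its neighbour Bak1, but its lowest library, at 9.76 TPM, was under the highest Bcl2 library, at 11.1 TPM. In CD8 anti-JAML no neighbours in the order were apart. Bcl2 stood there at 28.3 ± 16.6 TPM, with 9.39, 43.4, 19.4 and 41.0 TPM in library order. Overlapping annotations make some of these counts uncertain if counting ignored strand, a setting the sources do not give: Bcl2 shares 558 exon bases with an antisense gene, Bid shares 628 with Bcl2l13, and Bak1 overlaps Ggnbp1.

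**Figure D1:**
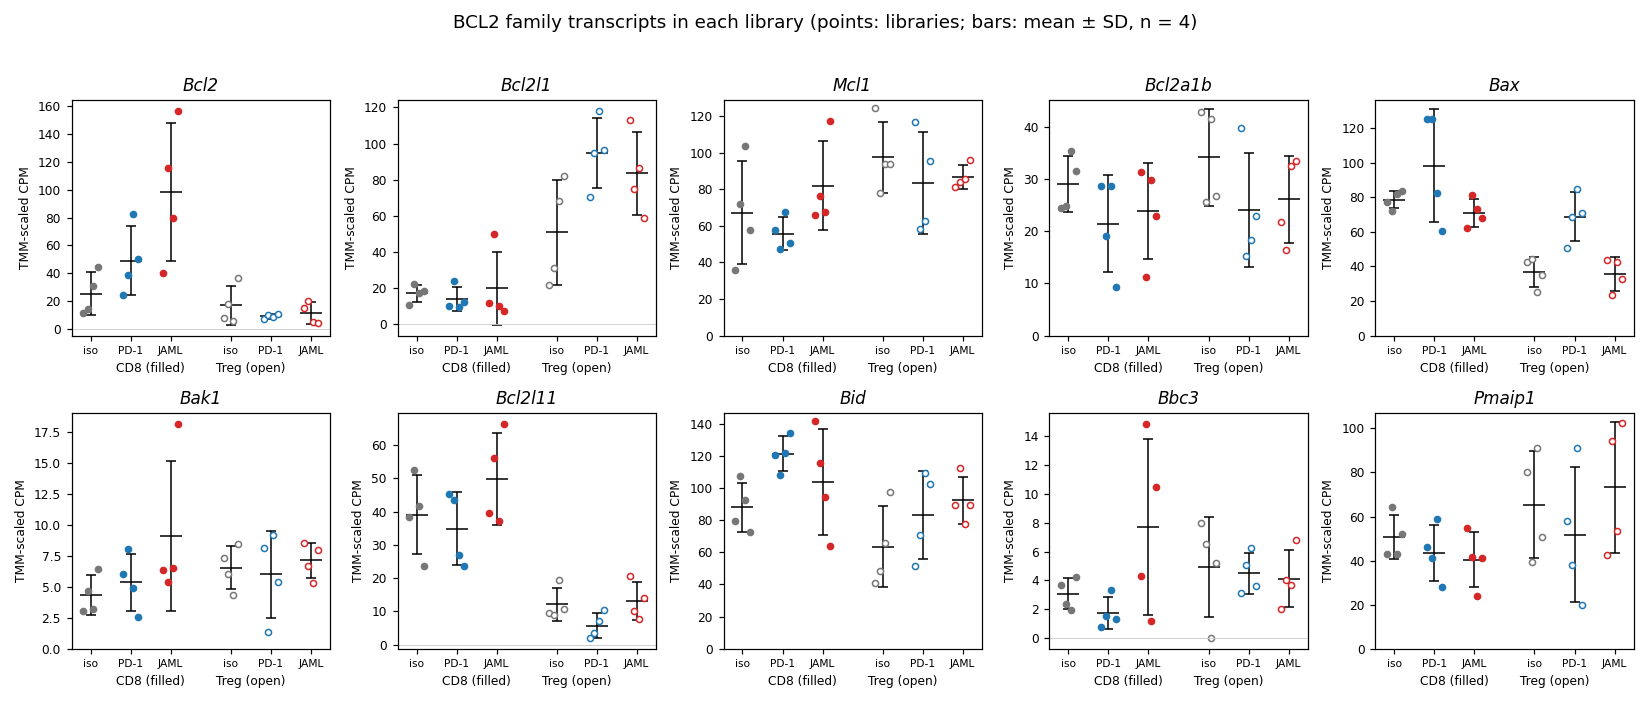
TMM-scaled CPM of each of the 10 genes (vertical axes, linear) in every library by group, with iso, PD-1 and JAML for the antibody, filled points for CD8 and open points for Treg libraries, and bars for the mean ± SD of 4. Bcl2l11 lay at 23.6 to 66.4 CPM in the CD8 libraries and at 2.13 to 20.6 CPM in the Treg libraries, and Bcl2l1 lay at 7.22 to 49.8 CPM in the CD8 libraries and at 21.6 to 118 CPM in the Treg libraries, ranges that overlapped.

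CD8 and Treg cells differed in 4 of the 10 members when the 3 antibodies were averaged over all 24 libraries. Bcl2 was 4.17-fold higher, Bcl2l11 4.21-fold higher and Bax 1.83-fold higher in CD8 cells, and Bcl2l1 was 4.44-fold higher in Treg cells. In that fit 26.1% of 14591 genes were called at an adjusted p of 0.05 (edgeR's quasi-likelihood test, Benjamini-Hochberg over all genes tested, two-sided). The median log2 fold change of the 10 members was -0.15, and that of all genes -0.01. These 4 calls held in each of the 24 fits that left out 1 library, under the other normalization, without the filter and with DESeq2. They also held without either pair of libraries that stood apart, with adjusted p of at most 0.00116. In bulk libraries, fewer cells that express a gene and less RNA per cell cannot be told apart. Between libraries, values are CPM scaled by trimmed mean of M values (TMM).

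Among the survival genes, Bcl2 (ENSMUSG00000057329.7, chromosome 1, 106538178 to 106714274, minus strand) encodes the protein that gave the family its name. Under isotype it stood at 11.5, 14.4, 30.8 and 44.6 CPM in the CD8 libraries and at 7.79, 17.7, 5.70 and 36.7 CPM in the Treg libraries. After anti-PD-1 it stood at 24.2, 38.6, 82.6 and 50.4 CPM in CD8 and at 6.77, 9.84, 8.17 and 10.9 CPM in Treg libraries. After anti-JAML it stood at 40.4, 116, 79.9 and 157 CPM in CD8 and at 15.2, 20.2, 5.12 and 3.96 CPM in Treg libraries. The populations overlapped under isotype and did not overlap after either antibody, as was the case for 15.2% of genes with anti-PD-1 and for 9.57% with anti-JAML. The log2 difference, CD8 minus Treg, was 0.52 ± 0.66 (SE) under isotype (adjusted p = 0.687), 2.45 ± 0.40 after anti-PD-1 (adjusted p = 0.0066) and 3.05 ± 0.63 after anti-JAML (adjusted p = 0.0397). Across the 3 antibodies it was 2.06 ± 0.35 (adjusted p = 0.000103). Without Treg libraries 1 and 4 the anti-PD-1 difference was 2.44 (adjusted p = 0.0304). The anti-JAML call rested on every library: leaving out any 1 of the 8 gave adjusted p of 0.0503 to 0.0963. Leaving out CD8 libraries 2 and 4, which held haemoglobin transcripts, gave 2.34 (adjusted p = 0.149). On the Treg side, anti-JAML library 4 held 1373 CPM of haemoglobin transcripts and had the lowest Bcl2 level of all Treg libraries, at 3.96 CPM. The part of these transcripts in the difference was not tested.

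Bcl2l1 (ENSMUSG00000007659.18, chromosome 2, 152780668 to 152831728, minus strand) encodes BCL-XL, a survival protein induced on T cell activation. Under isotype its CPM were 10.3, 21.8, 17.2 and 18.3 in CD8 libraries and 21.6, 31.2, 68.3 and 81.8 in Treg libraries. After anti-PD-1 they were 10.1, 24.1, 9.35 and 11.9 in CD8 and 70.6, 95.0, 118 and 96.2 in Treg libraries. After anti-JAML they were 11.5, 49.8, 10.2 and 7.22 in CD8 and 113, 75.1, 86.7 and 59.0 in Treg libraries. The groups did not overlap after anti-PD-1 (15.2% of genes) or anti-JAML (9.57% of genes), and under isotype they met only where the second CD8 library exceeded the first Treg library. The log2 difference, CD8 minus Treg, was -1.65 ± 0.45 under isotype (adjusted p = 0.0381), -2.79 ± 0.35 after anti-PD-1 (adjusted p = 0.00177) and -2.16 ± 0.61 after anti-JAML (adjusted p = 0.129). Over the 3 antibodies it was -2.15 ± 0.30 (adjusted p = 8.66e-06). Without Treg libraries 1 and 4 the anti-PD-1 difference was -2.94 (adjusted p = 0.00767). CD8 anti-JAML library 2, at 49.8 CPM, was also the CD8 library with the most macrophage transcripts (Lyz2 at 412.5 CPM). Without it the anti-JAML difference was -3.22 (adjusted p = 0.00426), without libraries 2 and 4 it was -3.04 (adjusted p = 0.0126), and any part of those transcripts in its Bcl2l1 level was not tested. The isotype call was lost in 6 of the 8 fits that left out 1 library, namely each CD8 isotype library in turn and Treg isotype libraries 3 and 4, with adjusted p up to 0.106.

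Mcl1, whose protein is short-lived and needed by most T cells, ranged from 36.1 to 118 CPM in CD8 libraries (median 66.7) and from 58.1 to 125 CPM in Treg libraries (median 89.8). These ranges overlapped widely. Its log2 difference, CD8 minus Treg, was -0.40 ± 0.16 (adjusted p = 0.0693). It passed the threshold under the other normalization (-0.47, adjusted p = 0.0302), with DESeq2 (-0.47, adjusted p = 0.0144), without the filter on low counts (-0.50, adjusted p = 0.0339) and in 6 of the 24 fits without 1 library. Without libraries 1 and 4 of Treg anti-PD-1 it was -0.25 (adjusted p = 0.318). Bcl2a1b differed by -0.18 ± 0.23 (adjusted p = 0.634), with 9.24 to 35.4 CPM in CD8 and 15.2 to 42.8 CPM in Treg libraries. Its copy Bcl2a1d had more reads, at 295 ± 26.9 CPM in CD8 isotype and 220 ± 51.3 CPM in Treg isotype libraries, while Bcl2a1a stayed at or under 4.91 CPM. Summing the 3 copies turned the isotype difference from -0.31 ± 0.29 to 0.28 ± 0.18 (adjusted p = 0.371), so no direction is given for the A1 genes.

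Of the pore formers, Bax (ENSMUSG00000003873.11, chromosome 7, 45461697 to 45466898, minus strand) was the one that differed. Its CPM under isotype were 77.4, 72.0, 81.8 and 83.3 in CD8 libraries and 42.4, 44.2, 25.4 and 35.1 in Treg libraries, which did not overlap, as for 21.8% of genes. After anti-PD-1 they were 125, 126, 82.2 and 60.2 in CD8 and 50.4, 68.5, 84.9 and 71.1 in Treg libraries, which overlapped. After anti-JAML they were 62.1, 81.3, 73.1 and 68.2 in CD8 and 43.7, 23.2, 42.7 and 32.6 in Treg libraries, again without overlap, as for 9.57% of genes. The log2 difference, CD8 minus Treg, was 1.03 ± 0.22 under isotype (adjusted p = 0.0129), 0.51 ± 0.27 after anti-PD-1 (adjusted p = 0.285), 0.92 ± 0.28 after anti-JAML (adjusted p = 0.162) and 0.87 ± 0.15 over the 3 antibodies (adjusted p = 8.29e-05). It was 0.36 (adjusted p = 0.536) after anti-PD-1 without Treg libraries 1 and 4, and 0.84 (adjusted p = 0.247) after anti-JAML without CD8 libraries 2 and 4. Bak1, the partner of Bax, was low in both populations, at 2.55 to 18.2 CPM in CD8 and 1.31 to 9.17 CPM in Treg libraries, with a difference of -0.13 ± 0.38 (adjusted p = 0.864). It had between 17 and 264 counts per library, which gives it one of the wider errors among the members.

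Bcl2l11 (ENSMUSG00000027381.16, chromosome 2, 128126038 to 128162547, plus strand) encodes BIM, and was the member with the clearest separation. Its CPM under isotype were 38.4, 52.5, 41.6 and 23.6 in CD8 libraries and 9.45, 8.86, 19.3 and 10.8 in Treg libraries. After anti-PD-1 they were 45.3, 43.6, 27.0 and 23.8 in CD8 and 2.13, 3.38, 6.99 and 10.4 in Treg libraries. After anti-JAML they were 39.7, 56.2, 37.2 and 66.4 in CD8 and 20.6, 10.1, 7.78 and 13.99 in Treg libraries. All 12 CD8 libraries lay above all 12 Treg libraries, as 290 of 14591 genes (1.99%) did in one direction or the other. On the authors' TPM the 2 populations overlapped, with 9 of 12 CD8 libraries above every Treg library. The log2 difference, CD8 minus Treg, was 1.62 ± 0.38 under isotype (adjusted p = 0.0196), 2.60 ± 0.52 after anti-PD-1 (adjusted p = 0.016), 1.83 ± 0.42 after anti-JAML (adjusted p = 0.0561) and 2.07 ± 0.26 over the 3 antibodies (adjusted p = 2.31e-06). The isotype call was lost without CD8 isotype library 1, 2 or 3 (adjusted p up to 0.0727), and the anti-PD-1 call without CD8 library 1 or Treg library 2 of that treatment (adjusted p up to 0.0531). Without Treg libraries 1 and 4 the anti-PD-1 difference was 2.75 (adjusted p = 0.019), and without CD8 libraries 2 and 4 the anti-JAML difference was 1.46 (adjusted p = 0.175).

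The remaining BH3-only genes were not called between the populations. Bid, which caspase-8 cleaves to link death receptors to mitochondria, lay at 63.7 to 141 CPM in CD8 and 41.0 to 112 CPM in Treg libraries, a log2 difference of 0.40 ± 0.16 (adjusted p = 0.0684). Pmaip1 lay at 24.1 to 64.5 CPM in CD8 and 19.7 to 103 CPM in Treg libraries, a difference of -0.49 ± 0.22 (adjusted p = 0.116). DESeq2 put Pmaip1 past the threshold (-0.57, adjusted p = 0.0472) and Bid further from it (0.31, adjusted p = 0.157). Bbc3, a p53 target, had 0 to 198 counts per library, from 0 to 14.9 CPM, and a difference of -0.39 ± 0.59 (adjusted p = 0.701), the widest error among the 10 members.

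By antibody, 3 members were called under isotype (Bcl2l1, Bcl2l11 and Bax), where 15.3% of 11680 genes were called. After anti-PD-1 3 were called (Bcl2, Bcl2l1 and Bcl2l11), where 7.83% of 12193 genes were. After anti-JAML 1 was called (Bcl2), where 2.08% of 11950 genes were. With DESeq2, 4 members were called after anti-JAML: Bcl2, Bcl2l1 (-2.12, adjusted p = 0.0133), Bcl2l11 (1.88, adjusted p = 0.000196) and Bax (0.96, adjusted p = 0.00821). With edgeR, fits that left out 1 library called 1 to 3 members under isotype, 2 to 3 in the anti-PD-1 libraries and 0 to 1 in the anti-JAML libraries.

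**Figure D2:**
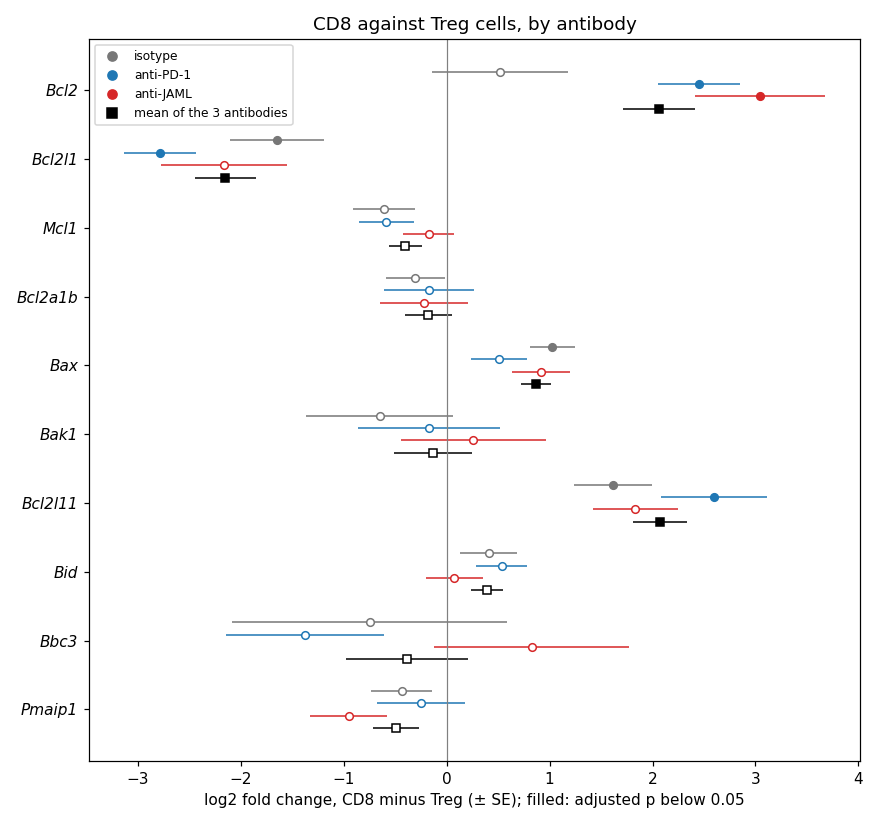
Log2 fold change, CD8 minus Treg, with its standard error (horizontal axis) for each gene (rows), 1 point for each antibody and a square for the mean of the 3, filled where the adjusted p was below 0.05. Bcl2, Bax and Bcl2l11 lay to the right and Bcl2l1 to the left for each antibody, with Bcl2 at 0.52 under isotype and 3.05 after anti-JAML.

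Ratios between members within a library, on the authors' TPM, put these differences side by side and were not tested. The log2 ratio of Mcl1 to Bcl2l11 was 1.98 ± 0.68 in CD8 isotype, 1.95 ± 0.58 in CD8 anti-PD-1 and 1.95 ± 0.19 in CD8 anti-JAML libraries (SD, n = 4). In Treg isotype libraries it was 4.30 ± 0.59, in Treg anti-PD-1 libraries 5.29 ± 1.22 and in Treg anti-JAML libraries 4.05 ± 0.63. No CD8 library, at 1.14 to 2.56, reached the lowest Treg library, at 3.22. The ratio of Bcl2 to Bcl2l11 showed no such order: its means were -0.97 ± 1.30, 0.22 ± 1.15 and 0.66 ± 0.56 in the 3 CD8 groups and -0.01 ± 1.54, 0.69 ± 0.85 and -0.66 ± 1.16 in the 3 Treg groups, in the order isotype, anti-PD-1, anti-JAML. Bcl2 to Bax was below 0 in all 24 libraries, from -4.38 ± 0.84 in CD8 isotype to -2.23 ± 0.76 in CD8 anti-JAML and -5.48 ± 0.30 in Treg anti-PD-1. In the CD8 anti-JAML libraries this ratio was -3.16, -2.03, -2.41 and -1.34 in library order. CD8 isotype (highest library -3.44) and CD8 anti-JAML (lowest library -3.16) did not overlap in it. Treg isotype (lowest library -4.98) and Treg anti-PD-1 (highest library -5.24) did not either. The Bcl2 level itself, in CPM, overlapped in both of these pairs of groups. The ratio of Bcl2 to Bcl2l1, chosen after its values were seen, was -1.60 to 3.45 in CD8 and -5.08 to -1.81 in Treg libraries, again without overlap. Bcl2l1 to Bak1 overlapped between the populations. How often ratios of other gene pairs separate these groups or populations was not worked out.

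**Figure D3:**
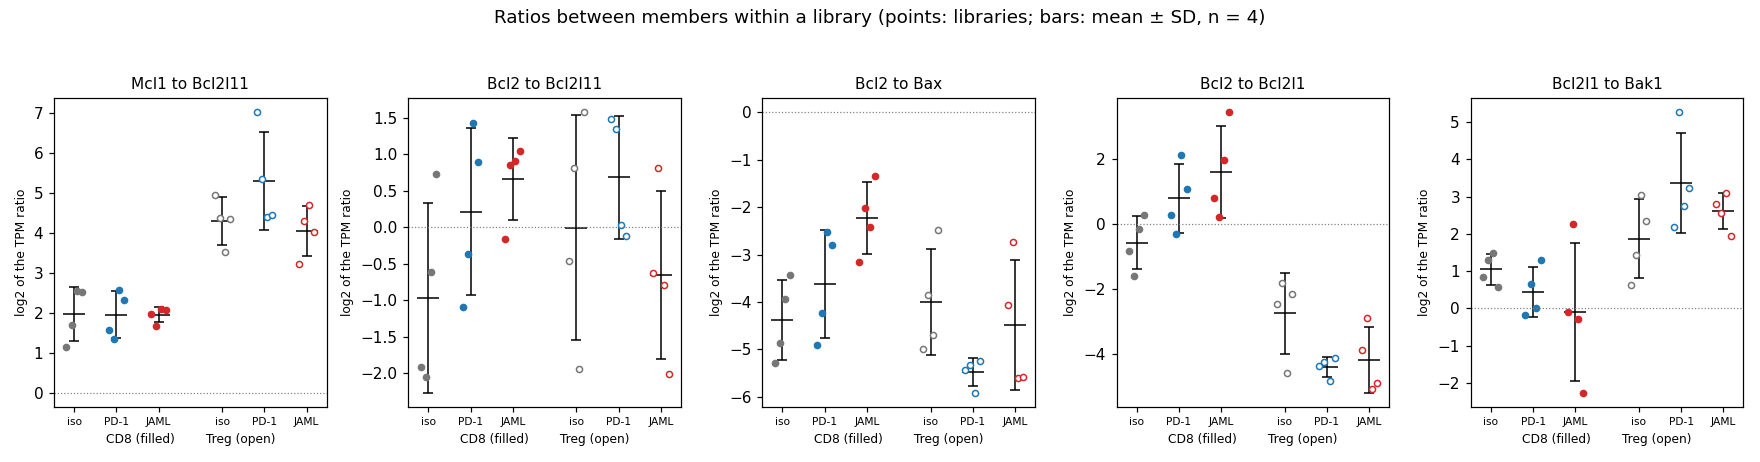
Log2 of the TPM ratio of each named pair of genes (vertical axes) in every library by group, filled points for CD8 and open points for Treg libraries, with bars for the mean ± SD of 4 and a dotted line at equal TPM. Mcl1 to Bcl2l11 lay at 1.14 to 2.56 in CD8 and at 3.22 or more in Treg libraries, while Bcl2 to Bcl2l11 overlapped in all groups.

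No member was called between antibodies within CD8 cells or within Treg cells. Few genes were: 0% of 12648 in CD8 cells for anti-JAML against isotype and 0% for anti-PD-1 against isotype, and 0.00791% (1 gene) for anti-JAML against anti-PD-1. In Treg cells it was 0% of 12981 for anti-JAML against isotype, 0.0231% (3 genes) for anti-PD-1 against isotype and 0% for anti-JAML against anti-PD-1. At an unadjusted p under 0.05 edgeR gave, in the same order, 1483, 710, 1261, 699, 1835 and 742 genes, and DESeq2 called 294, 59, 376, 166, 792 and 140 at its adjusted threshold. Of the 10 members, 1, 1, 1, 0, 2 and 1 had an unadjusted p under 0.05, and DESeq2 called 1, 0, 0, 0, 1 and 1.

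In CD8 cells Bcl2 had the largest departure from isotype after anti-JAML. Its mean was 25.3 ± 15.4 CPM (SD, n = 4) under isotype, 49.0 ± 24.9 CPM after anti-PD-1 and 98.3 ± 49.8 CPM after anti-JAML. Only the fourth isotype library, at 44.6 CPM, exceeded the lowest anti-JAML library, at 40.4 CPM. The log2 difference of anti-JAML from isotype was 1.99 ± 0.52 (unadjusted p = 0.00198, adjusted p = 0.29; rank 79 by p of 12648 genes), and DESeq2 gave 2.02 (adjusted p = 0.0129). Leaving out 1 library gave 1.67 to 2.42. Without libraries 2 and 4 of CD8 anti-JAML it was 1.28 (adjusted p = 0.732), a fit with 2 anti-JAML libraries left. Those 2 libraries held the highest Bcl2 levels of all, 116 and 157 CPM, and the haemoglobin transcripts, whose part in the result was not tested. The difference of anti-PD-1 from isotype was 0.97 ± 0.51 (adjusted p = 0.935), and that of anti-JAML from anti-PD-1 1.02 ± 0.51 (adjusted p = 0.537), or 0.30 (adjusted p = 0.932) without libraries 2 and 4.

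Bid, after anti-PD-1, lay at 108 to 134 CPM in CD8 cells, above all 4 isotype libraries at 72.9 to 107 CPM, as 6.08% of genes separated between these groups. The log2 difference was 0.49 ± 0.22 (unadjusted p = 0.0484, adjusted p = 0.884). Bbc3 stood at 4.30, 14.9, 1.19 and 10.5 CPM in the CD8 anti-JAML libraries and at 0.730, 1.56, 3.31 and 1.34 CPM in the CD8 anti-PD-1 libraries, which overlapped. That difference was 2.16 ± 0.87 (unadjusted p = 0.0272, adjusted p = 0.404), and without CD8 anti-JAML libraries 2 and 4 it was 0.66 (adjusted p = 0.915). Without them the Bbc3 difference of anti-JAML from isotype turned from 1.37 ± 0.85 to -0.13. In CD8 cells the differences of Bcl2l1, Bcl2l11, Bcl2a1b, Mcl1, Bax, Bak1 and Pmaip1 had unadjusted p of 0.0689 or more in the 3 comparisons.

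In Treg cells Bax had the smallest p of the members. It lay at 50.4 to 84.9 CPM after anti-PD-1, above every library under isotype (25.4 to 44.2 CPM) and after anti-JAML (23.2 to 43.7 CPM). Such separation was seen in 7.44% of genes against isotype and 4.17% against anti-JAML. The log2 difference of anti-PD-1 from isotype was 0.90 ± 0.28 (unadjusted p = 0.00658, adjusted p = 0.18; DESeq2 adjusted p = 0.0245), and that of anti-JAML from anti-PD-1 was -0.95 ± 0.28 (unadjusted p = 0.00473, adjusted p = 0.641; DESeq2 adjusted p = 0.049). Both comparisons share the anti-PD-1 libraries. Libraries 1 and 4 of that group held the macrophage transcripts, and without them the differences were 1.08 (adjusted p = 0.156) and -1.13 (adjusted p = 0.506). Bcl2l11 had larger differences with wider errors, -1.08 ± 0.63 for anti-PD-1 from isotype (unadjusted p = 0.111, adjusted p = 0.499) and 1.20 ± 0.64 for anti-JAML from anti-PD-1 (unadjusted p = 0.0808, adjusted p = 0.966). Without libraries 1 and 4 they were -1.21 (adjusted p = 0.494) and 1.33 (adjusted p = 0.725). Bcl2l1 in Treg cells differed from isotype by 0.90 ± 0.39 on the log2 scale after anti-PD-1 (unadjusted p = 0.0381, adjusted p = 0.312; 1.08 and adjusted p = 0.302 without libraries 1 and 4). After anti-JAML it differed from the same isotype libraries by 0.71 ± 0.39 (unadjusted p = 0.0885, adjusted p = 1). Against isotype, Bcl2 in Treg cells differed by -0.94 ± 0.71 in the anti-PD-1 libraries and by -0.61 ± 0.70 in the anti-JAML libraries.

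Whether an antibody difference was unlike between CD8 and Treg cells was tested as an interaction, in which 0% of 14591 genes were called for anti-JAML and 0% for anti-PD-1. At an unadjusted p under 0.05 there were 1224 and 912 genes, and DESeq2 called 302 and 215. The Bcl2 interaction was 2.56 ± 0.84 for anti-JAML (unadjusted p = 0.00552, adjusted p = 0.373; DESeq2 adjusted p = 0.0952) and 1.87 ± 0.83 for anti-PD-1 (unadjusted p = 0.0344, adjusted p = 0.738). Without CD8 anti-JAML libraries 2 and 4 the first was 1.86 (adjusted p = 0.714), and without Treg anti-PD-1 libraries 1 and 4 the second was 1.86 (adjusted p = 0.771). For the other 9 members the unadjusted p was 0.101 or more in both.

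**Figure D4:**
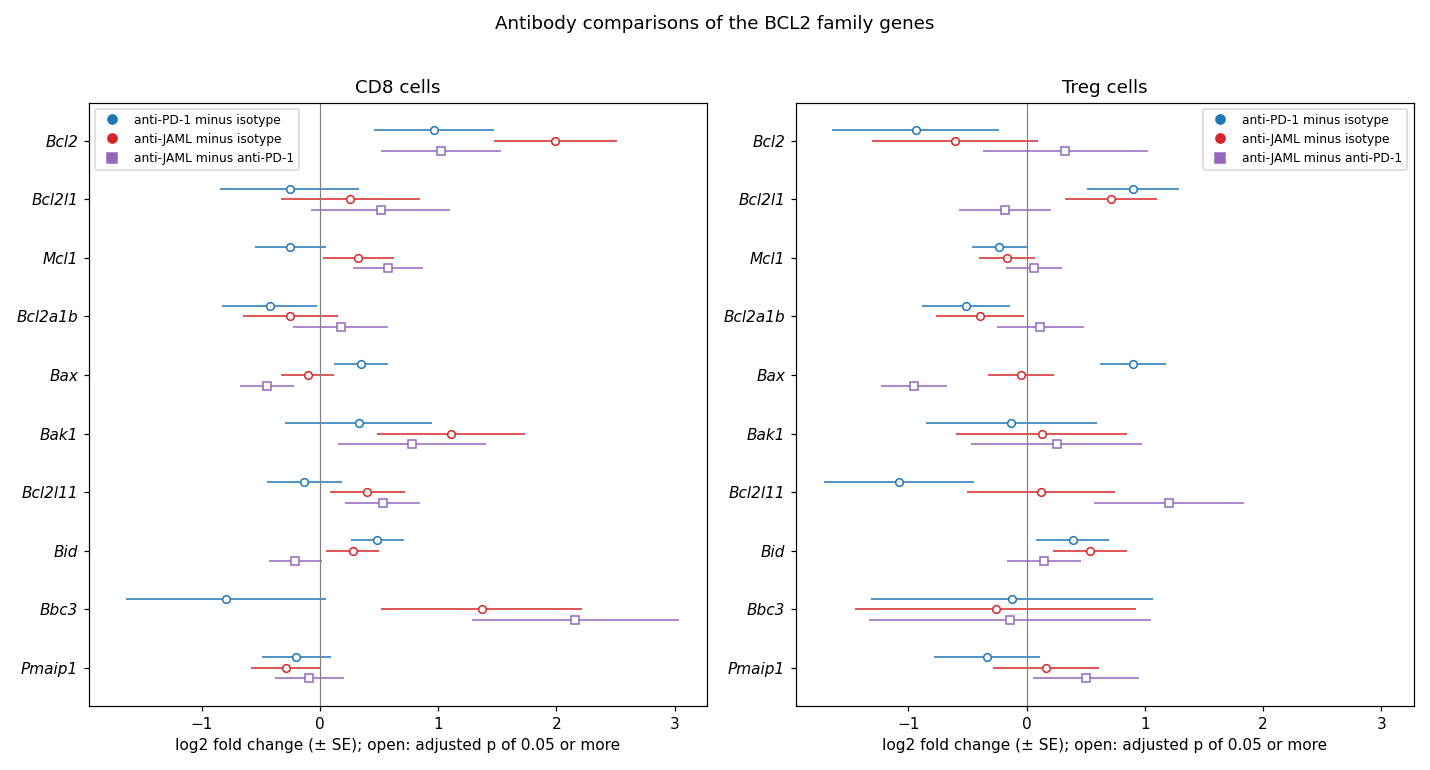
Log2 fold change with its standard error (horizontal axes) of each gene between antibodies, in CD8 cells on the left and in Treg cells on the right; every point is open because no adjusted p was below 0.05. Bcl2 in CD8 cells at 1.99 (anti-JAML minus isotype) and Bax in Treg cells at 0.90 (anti-PD-1 minus isotype) lay more than 3 standard errors from 0.

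Other genes of the death and survival routes were described over the same fit of CD8 against Treg, over the 3 antibodies. That fit called 26.1% of 14591 genes. Of the 15 other BCL2 family genes 12 were tested, none was higher in CD8 cells and 2 were lower, with a median log2 fold change of -0.84 against -0.01 for all genes. They were Bnip3 and Bnip3l, mitophagy receptors known to be induced by hypoxia, at -1.77 ± 0.19 (adjusted p = 1.76e-07) and -0.63 ± 0.10 (adjusted p = 3.89e-05). The other genes tested in this family list had no call, so its median is not read as a shift of the whole list. In the apoptosome and caspase list of 17 genes, 3 were higher in CD8 cells and 5 lower (median 0.13). Cytochrome c (Cycs, 1.03 ± 0.18, adjusted p = 0.000144) and the mitochondrial channel gene Vdac2 (0.87 ± 0.15, adjusted p = 8.72e-05) were higher. Birc2 (-1.13 ± 0.14, adjusted p = 2.62e-06) and Birc3 (-1.05 ± 0.14, adjusted p = 5.54e-06), ubiquitin ligases of the inhibitor of apoptosis family, were lower. Without CD8 anti-JAML libraries 2 and 4, 1 other family gene was higher (Bcl2a1d, 0.41, adjusted p = 0.0444) and 3 were lower. With all libraries Bcl2a1d was at 0.24 ± 0.21 (adjusted p = 0.434). It stood at 74.8 and 81.3 CPM in those 2 libraries, and at 279 and 273 CPM in CD8 anti-JAML libraries 1 and 3. Its reads cannot be told with certainty from those of its copies, so no direction is given for it.

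Of 12 death receptor genes 1 was higher in CD8 cells and 5 were lower, with a median of -0.27. For this and the next lists the share called over all genes was again 26.1%. Fasl, the ligand of the death receptor Fas, was higher by 2.14 ± 0.28 (adjusted p = 3.87e-06), at 191 ± 42.3 CPM in CD8 isotype and 53.6 ± 34.0 CPM in Treg isotype libraries. Lower were Cflar, which blocks caspase-8 (-1.16 ± 0.13, adjusted p = 6.49e-07), the necroptosis kinase Ripk3 (-0.84 ± 0.17, adjusted p = 0.000612) and the receptor Fas (-0.93 ± 0.25, adjusted p = 0.00656). Of 8 p53 route genes, Trp53 itself (0.75 ± 0.12, adjusted p = 4.39e-05) and the nuclease gene Aen (0.72 ± 0.20, adjusted p = 0.0102) were higher in CD8 cells and Cdkn1a, a cell cycle inhibitor, lower (-0.65 ± 0.23, adjusted p = 0.0434), with a median of -0.17. The Aen call was lost without CD8 anti-JAML libraries 2 and 4 (0.47, adjusted p = 0.0961) and the Cdkn1a call without Treg anti-PD-1 libraries 1 and 4 (-0.51, adjusted p = 0.163). Among 15 genes of the common gamma chain cytokine route 2 were higher in CD8 cells and 7 lower, with a median of -0.62, and 10 were lower without CD8 anti-JAML libraries 2 and 4, with a median of -1.17. Those with the smallest p were Il2ra (-2.52 ± 0.23, adjusted p = 1.64e-08), which also counts as a Treg marker here, the survival kinase Pim1 (-1.77 ± 0.21, adjusted p = 8.64e-07), and the STAT5 targets and feedback inhibitors Cish (-3.48 ± 0.49, adjusted p = 9.91e-06) and Socs1 (-1.02 ± 0.15, adjusted p = 2.46e-05). Of the 7 FOXO route genes none was higher and 2 were lower, Foxo1 (-1.08 ± 0.22, adjusted p = 0.000629) and Foxo3 (-1.44 ± 0.34, adjusted p = 0.00231), with a median of 0.04.

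Between antibodies no gene of these 6 lists was called in any of the 6 comparisons. In CD8 cells after anti-JAML against isotype, 14 of 15 cytokine route genes had a positive difference, with a median of 0.75 against 0.10 for all genes, and 5 had an unadjusted p under 0.05. Without libraries 2 and 4 of CD8 anti-JAML 9 of 15 were positive, with a median of 0.24 against 0.00 for all genes, and 2 had an unadjusted p under 0.05. In the fit with all libraries the smallest were Pim2 (1.33 ± 0.36, adjusted p = 0.292) and Il7r, the interleukin 7 receptor (1.98 ± 0.54, adjusted p = 0.295), the latter at 52.7 ± 32.4 CPM under isotype and 203 ± 60.6 CPM after anti-JAML. In the FOXO route list they were Pik3ip1, an inhibitor of PI3 kinase (2.49 ± 0.59, adjusted p = 0.275), and Sgk1 (0.86 ± 0.32, adjusted p = 0.363). Among other family members they were Bcl2l13 (1.15 ± 0.31, adjusted p = 0.29), whose exons overlap those of Bid, and Bnip3 (-0.84 ± 0.24, adjusted p = 0.302). Without libraries 2 and 4 the differences were 1.26 for Pim2, 1.78 for Il7r, 1.14 for Pik3ip1, 0.20 for Sgk1, 0.92 for Bcl2l13 and -0.998 for Bnip3, with adjusted p from 0.3 for Pim2 to 0.972 for Sgk1. The Bcl2l13 difference from isotype was not particular to CD8 cells after anti-JAML. It was 0.94 ± 0.30 in CD8 cells after anti-PD-1 (adjusted p = 0.856). In Treg cells it was 1.36 ± 0.39 after anti-JAML (adjusted p = 0.853) and 1.58 ± 0.395 after anti-PD-1 (adjusted p = 0.121). Between anti-JAML and anti-PD-1 in CD8 cells, Bcl2l13 differed by 0.21 ± 0.30 (adjusted p = 0.905). In Treg cells after anti-PD-1, Il7r (-1.27 ± 0.29, adjusted p = 0.0968) and Xiap, a caspase inhibitor (-0.85 ± 0.20, adjusted p = 0.0999), came nearest to the threshold. Without libraries 1 and 4 of that group they were -1.45 (adjusted p = 0.115) and -0.89 (adjusted p = 0.139).

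The genes whose log2 CPM ran most like that of a member over the 24 libraries were sought among 8813 genes. These had a mean of at least 5 CPM. Ribosomal protein genes, pseudogenes and genes with only a predicted or clone name were left out by their symbols. Pearson's r was the measure, with no test. The libraries fall into 2 populations and share depth and scaling, which the r carries. For Bcl2 they were Evl (r = 0.91), Klra7 (0.81) and Tcf7 (0.81). For Bcl2l1 they were Traf1 (0.93), Ccnd2 (0.91) and H2-D1 (0.91). For Bcl2l11 they were Cd8b1 (0.84), Trgc2 (0.83) and Cd8a (0.83), of which Cd8b1 and Cd8a mark the CD8 sort. For Bax they were Eif6 (0.88), Dnajc9 (0.87) and Mlf2 (0.87), and for Mcl1 they were Kiz (0.78), Skil (0.78) and Rgs10 (0.76). Bcl2a1b ran with Tmsb10 (0.91), Bid with Cdc23 (0.78), Bak1 with Ubald2 (0.67) and Pmaip1 with Cd1d1 (0.67), while Bbc3 was under the level needed.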

How the data were processed

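The authors deposited a table of whole-number counts per gene and a table of TPM for 24 bulk libraries. The submitters' processing notes name fastp 0.20.1, STAR 2.7.3a, SAMtools, deepTools 3.3.1 and build mm10. The sources do not give the counter, its strand setting or the lengths behind TPM. Of the row IDs, 98.64% matched GENCODE M21. Members and lists were chosen with earlier results of these data known.

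Counts were tested with edgeR 4.0.16 (TMM, filterByExpr at 10 counts, 15 in total, robust quasi-likelihood F test) in R 4.3.3, two-sided, Benjamini-Hochberg over all genes, threshold 0.05. Antibody comparisons used the 12 libraries of a population, CD8 against Treg the 8 libraries of an antibody, and the mean over antibodies and the interactions all 24. Standard errors are the log2 fold change divided by the root of F. Alternatives were DESeq2 1.42.0, RLE factors, no filter, a replicate block and leaving out each library. Added after seeing the data were leaving out some of the libraries with other cells' transcripts and summing the Bcl2a1 copies. Scripts were tested on simulated data. Named list genes are those called (at most 4 with the smallest p per list) or, where none was, the 2 with the smallest p, given for the comparisons described. Depth was 11170918 to 22556460 counts per library.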

Additional observations from a re-analysis of the deposited data

Results flagged for a closer look

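In 3 of 60 sets of 4 libraries (10 genes in 6 groups), 1 library lay far from the other 3 in CPM by Dixon's test. Chance gives about that number at 1 in 20 if the sets are independent, but sets from the same libraries need not be. Bcl2l1 was highest in library 2 of CD8 anti-PD-1, at 24.05 CPM, with the other 3 at 9.35 to 11.9 CPM. It was also highest in library 2 of CD8 anti-JAML, at 49.84 CPM, with the other 3 at 7.22 to 11.5 CPM; the macrophage markers of that library summed to 464.7 CPM. Bak1 was highest in library 4 of CD8 anti-JAML, at 18.15 CPM, with the other 3 at 5.41 to 6.53 CPM; its haemoglobin genes summed to 404.4 CPM. The part of those transcripts was not tested.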

How the results depend on the processing

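Member fold changes at least as large as their standard error were followed through 1170 alternatives: 1122 kept their direction and side of the threshold, 24 lost the call, 22 gained it and 2 turned (Bbc3 in CD8 anti-JAML against isotype, -0.13 without CD8 anti-JAML libraries 2 and 4, and Bcl2a1b in CD8 against Treg under isotype, 0.28 with the copies summed). Most of these fold changes had no call in the main fit and so none to lose. The calls over the 3 antibodies held, so all 24 losses were of calls made for CD8 against Treg by antibody. The causes were not tested. Low counts of Bbc3 and Bak1 limit what can be seen of them.

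DESeq2 called 294, 59 and 376 genes in CD8 cells (anti-JAML against isotype, anti-PD-1 against isotype, anti-JAML against anti-PD-1), 166, 792 and 140 in Treg cells, 3041, 2343 and 1080 for CD8 against Treg under isotype, anti-PD-1 and anti-JAML, and 302 and 215 in the interactions for anti-JAML and anti-PD-1. It called 1 member (Bcl2) in CD8 anti-JAML against isotype, 1 (Bax) in Treg anti-PD-1 against isotype, 1 (Bax) in Treg anti-JAML against anti-PD-1 and 4 in CD8 against Treg after anti-JAML. For CD8 anti-JAML against anti-PD-1, RLE factors gave 4 genes, no filter 9 and leaving out CD8 anti-JAML libraries 2 and 4 gave 0. Leaving out Treg anti-PD-1 libraries 1 and 4 gave 12 genes for Treg anti-PD-1 against isotype and 2 for its interaction.

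Same-numbered libraries deviated together weakly at most (correlations of -0.176 to 0.147). The highest values were all between libraries numbered 2. They were 0.147 for CD8 anti-PD-1 with CD8 anti-JAML, 0.129 for CD8 anti-PD-1 with Treg anti-PD-1 and 0.134 for CD8 anti-JAML with Treg anti-PD-1. The labels do not tie a number to a mouse, and these correlations cannot tell whether libraries share one. The numbers were not taken as pairs. With the replicate block, genes called were 0 for CD8 anti-JAML against anti-PD-1, 0 for Treg anti-PD-1 against isotype, 1075 for CD8 against Treg under isotype and 95 after anti-JAML. Members called under the block were 0 under isotype (Bcl2l1, Bcl2l11 and Bax at adjusted p of 0.0612, 0.0575 and 0.0519) and 0 after anti-JAML (Bcl2 at 0.122), while the 4 calls over the 3 antibodies held.

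Leaving out 1 library gave 0 to 11 genes for CD8 anti-JAML against anti-PD-1, 0 to 5 for Treg anti-JAML against isotype, 0 to 122 for Treg anti-PD-1 against isotype, 0 to 1 for Treg anti-JAML against anti-PD-1, 1117 to 2125 for CD8 against Treg under isotype, 396 to 1900 for the anti-PD-1 libraries, 82 to 328 for the anti-JAML libraries, and 0 to 19 and 0 to 12 in the interactions for anti-JAML and anti-PD-1. It gave 1 to 3 members for CD8 against Treg under isotype, 2 to 3 for the anti-PD-1 libraries, 0 to 1 for the anti-JAML libraries and 4 to 6 over the 3 antibodies. By median, 45 of 60 places in the order of TPM were equal, and by CPM per kilobase 56 of 60.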
